A study of Saccharomyces cerevisiae with 15 samples.

Results

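ARO8, ARO9, ARO10 and ARO80 are the budding yeast genes for breaking down the aromatic amino acids and for the activator of that route. They were taken by their identifiers, YGL202W, YHR137W, YDR380W and YDR421W, and make up 4 of the 6692 yeast features in the table. The set was selected on the change of ARO10 in wild type (WT) cells given sulfometuron (SM), which is among the widest rises of the table, so the values of the 4 genes in WT with SM against WT without SM are described below without a test. RNA was sequenced from 5 groups of 3 libraries each. The groups were an spt3Δ::kanMX4 strain with SM, an spt8Δ::kanMX4 strain with SM, a gcn5Δ::kanMX4 strain with SM, WT (BY4741) with SM and WT without SM. All are MATa cells that also carry his3Δ1, leu2Δ, met15Δ and ura3Δ. They grew at 30 °C in synthetic medium without isoleucine and valine to an OD600 of 0.6 to 0.8, and SM was given at 1 µg/ml for 25 min. SM blocks an early step of isoleucine and valine synthesis and so induces Gcn4, the activator of amino acid synthesis genes. Each deletion is a single strain and none was sequenced without SM, so the induction within a deletion strain cannot be measured. The study asks how the coactivator SAGA, through its subunits, serves transcription of the Gcn4-induced genes.

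As background, yeast takes nitrogen from phenylalanine, tyrosine and tryptophan by the Ehrlich pathway. An aminotransferase moves the amino group away, a decarboxylase turns the remaining 2-oxo acid into an aldehyde, and dehydrogenases make a fusel alcohol or acid from it. Aro8 is the broad aminotransferase that also works in the synthesis of aromatic amino acids, Aro9 is the inducible aminotransferase, and Aro10 is the decarboxylase. Aro80, a zinc cluster protein, activates ARO9 and ARO10 when aromatic amino acids are present, and GATA factors add control by nitrogen supply. Within SAGA, Gcn5 acetylates histones, and Spt3 and Spt8 contact the TATA-binding protein.

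The upstream sequences of the 4 genes differ in how often they hold the type of site bound by Aro80. ARO10 lies on chromosome IV at 1234218 to 1236125, ARO9 on chromosome VIII at 375709 to 377250, ARO80 on chromosome IV at 1312040 to 1314892 and ARO8 on chromosome VII at 116059 to 117561. All are on the plus strand of the sacCer3 (R64) build, and the stretches below come from the RefSeq genome of that build. They are shown because they hold the spaced CCG pairs, whose CCG ends (CGG for a pair on the minus strand) are in capitals; the ARO8 stretch covers the same distances as that of ARO9 and has no pair.
ARO10, chrIV:1233868-1233978: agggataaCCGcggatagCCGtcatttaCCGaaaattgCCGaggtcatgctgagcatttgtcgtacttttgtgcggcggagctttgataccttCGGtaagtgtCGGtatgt
ARO9, chrVIII:375469-375579: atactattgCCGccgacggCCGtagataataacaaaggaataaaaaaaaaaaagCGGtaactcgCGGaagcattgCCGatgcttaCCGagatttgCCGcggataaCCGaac
ARO80, chrIV:1311890-1311920: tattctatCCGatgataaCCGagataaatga
ARO8, chrVII:115819-115929: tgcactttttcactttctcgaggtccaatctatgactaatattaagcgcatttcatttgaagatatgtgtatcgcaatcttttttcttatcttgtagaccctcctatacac

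The pair was searched as CCGNNNNNNNCCG (N, any base) on both strands in the 500 bases before each start codon. ARO9 held 5 pairs, ARO10 held 4 and ARO80 held 1, and ARO8 held none. Among the 5979 upstream windows searched, 5.32% held at least 1 pair and 0.0836% held at least 4. The latter were the windows of SPL2 and ARO9, with 5 pairs each, and of SOH1, SDH6 and ARO10, with 4 each. Windows of genes that lie side by side can hold the same pairs, and this was not checked. In ARO10 the pairs that begin 342, 332 and 322 bases before the start codon run head to tail and share their inner CCGs, as do those at 165, 155 and 145 in ARO9. GATAA, the core letters of GATA factor sites, stood 2 times upstream of ARO8, 2 times upstream of ARO9, 3 times upstream of ARO10 and 3 times upstream of ARO80, as it does at least once in 78.6% of windows. In ARO9 the GATAA at 140 bases and in ARO80 the GATAA at 137 bases before the start codon lie inside a CCG pair. TGACTC, the core of Gcn4 sites, was found in none of the 4 windows and in 12.6% of all windows. TATAAA or TATATA occurred in all 4 windows and in 75.4% of all windows. These are matches of letters, and binding was not measured.

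**Figure D1:**
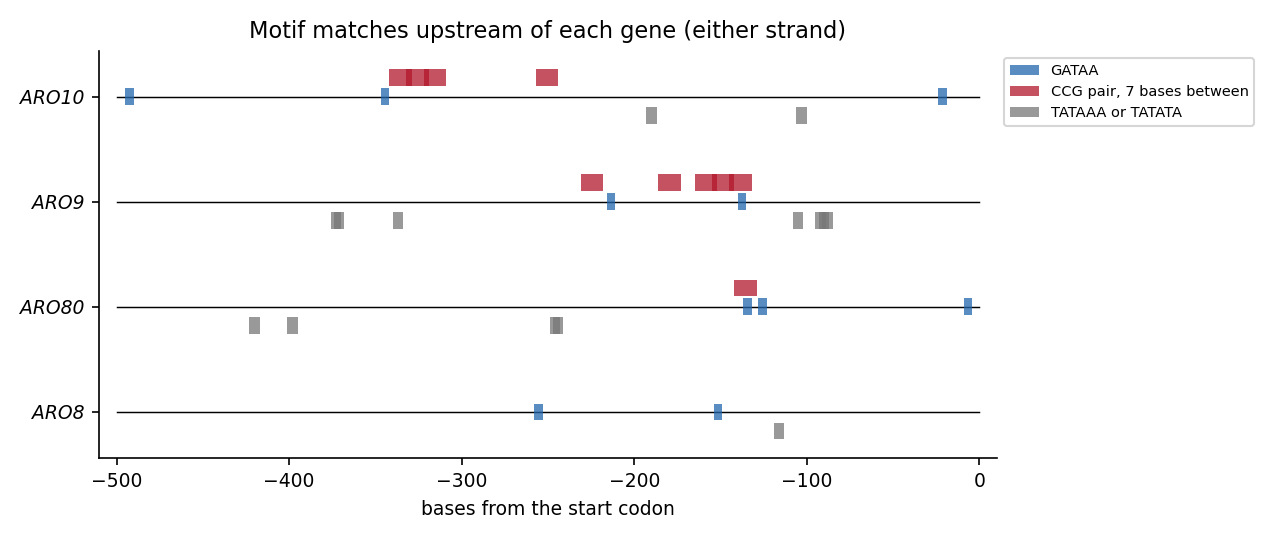
Motif matches in the 500 bases before the start codon of ARO10, ARO9, ARO80 and ARO8, with distance from the start codon in bases on the horizontal axis. Red marks are spaced CCG pairs (4, 5, 1 and 0 from top to bottom), blue marks GATAA and grey marks TATAAA or TATATA, each on either strand.

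Libraries held 24830028 to 45707685 yeast counts, and spike-in RNAs (the ERCC mix, added per amount of total RNA) made up 1.18% to 1.80% of all counts. Scaled counts below are counts divided by a size factor from the spike-ins, so they are relative to the RNA taken and not to the number of cells, and fewer expressing cells and less mRNA per cell cannot be told apart. SPT3 had 1 to 3 raw counts in spt3Δ libraries, SPT8 had 11 to 17 in spt8Δ libraries and GCN5 had 12 to 29 in gcn5Δ libraries, against 711 or more for each of these genes in WT with SM. LEU2 and MET15, deleted in every strain, had 70 and 82 raw counts in WT without SM library 1 and at most 6 and 4 in the other 14 libraries. HIS3, of which his3Δ1 removes only a part, had 1561 to 9425 raw counts. The a-cell genes (STE2, MFA1, MFA2, BAR1 and STE6) summed to 2316 to 2468 TMM-scaled cpm (counts per 1e6) in gcn5Δ, 3089 to 3281 in spt3Δ and 3088 to 3170 in spt8Δ, against 3814 to 3974 in WT with SM. The alpha-cell genes (MFα1, MFα2, STE3 and SAG1), none of them at 0, summed to 269 to 302 in gcn5Δ and 274 to 281 in WT with SM, against 163 to 177 in WT without SM. Within that sum MFα1 was called higher in gcn5Δ than in WT with SM (log2 0.84), and MFα2 (-0.65) and STE3 (-0.80) lower, and all 4 were called higher in WT with SM than without it. The part of either list in the results was not tested. Yeast counts per unit of spike-in factor stood apart in gcn5Δ library 3, at 43.2 M against 30.5 M and 29.6 M in the other gcn5Δ libraries. They were also high in spt3Δ library 1, at 49.2 M against 34.8 M and 37.6 M (M, counts in units of 1e6). Library names fall in 2 sets, WT with spt3Δ and spt8Δ with gcn5Δ, so set and strain cannot be told apart where WT is compared with spt8Δ or gcn5Δ, or spt3Δ with either. Nothing says that replicates came from separate cultures, so the spread behind each p-value is that between these libraries and may be technical.

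In WT cells, ARO9 and ARO10 were many times higher with SM, ARO80 was 2.10 times as high and ARO8 moved no more than the median gene. The median log2 fold change over all 6564 genes tested was 0.54. ARO8 had 26191, 27948 and 24847 scaled counts in WT with SM, against 19357, 19862 and 20423 in WT without SM. Its log2 fold change of 0.41 ± 0.16 (SE) lay below the median of all genes. When libraries were scaled to their own yeast counts (TMM) in place of the spike-ins, its change was -0.09 ± 0.07.

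ARO9 had 25132, 30360 and 28087 scaled counts in WT with SM, against 2021, 1839 and 1959 in WT without SM. This is a fold of 14.4 (log2 3.84 ± 0.19), rank 146 of 6564 from the highest. ARO10 had 17863, 20595 and 19022 scaled counts in WT with SM, against 481, 547 and 561 in WT without SM. Its fold of 36.2 (log2 5.18 ± 0.22) ranked 47 from the highest. ARO80 had 4939, 5420 and 4365 scaled counts in WT with SM, against 2328, 2347 and 2349 in WT without SM, a fold of 2.10 (log2 1.07 ± 0.19). In scaled counts, every library with SM lay above every library without it for each of the 4 genes. Of all genes, 76.0% did not overlap, in either direction. In TMM-scaled cpm, ARO8 had 662.6, 646.1 and 703.2 with SM, all below its 737.6, 725.5 and 765.8 without SM.

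The 4 genes differed widely in how much of their mRNA was there without SM, and their order changed with it. Per kilobase of coding length, ARO9 stood at 18067 ± 1700 scaled counts (SD, n = 3) in WT with SM and ARO8 at 17517 ± 1035, and their libraries overlapped. ARO10 followed at 10042 ± 719 and ARO80 at 1720 ± 185, each apart from its neighbour. In WT without SM, ARO8 led at 13227 ± 355 per kilobase, then ARO9 at 1258 ± 60, ARO80 at 821 ± 4 and ARO10 at 278 ± 22, with no overlap between neighbours. The decarboxylase gene was above the activator gene with SM and the lowest of the 4 without it. The mean scaled count of WT without SM was 2.76% of that in WT with SM for ARO10, 6.96% for ARO9, 47.7% for ARO80 and 75.5% for ARO8. In spt3Δ, spt8Δ and gcn5Δ with SM the order per kilobase was ARO8, ARO9, ARO10 and ARO80, and ARO8 and ARO9 were apart only in gcn5Δ, at 12450 ± 1126 and 7788 ± 1060.

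**Figure D2:**
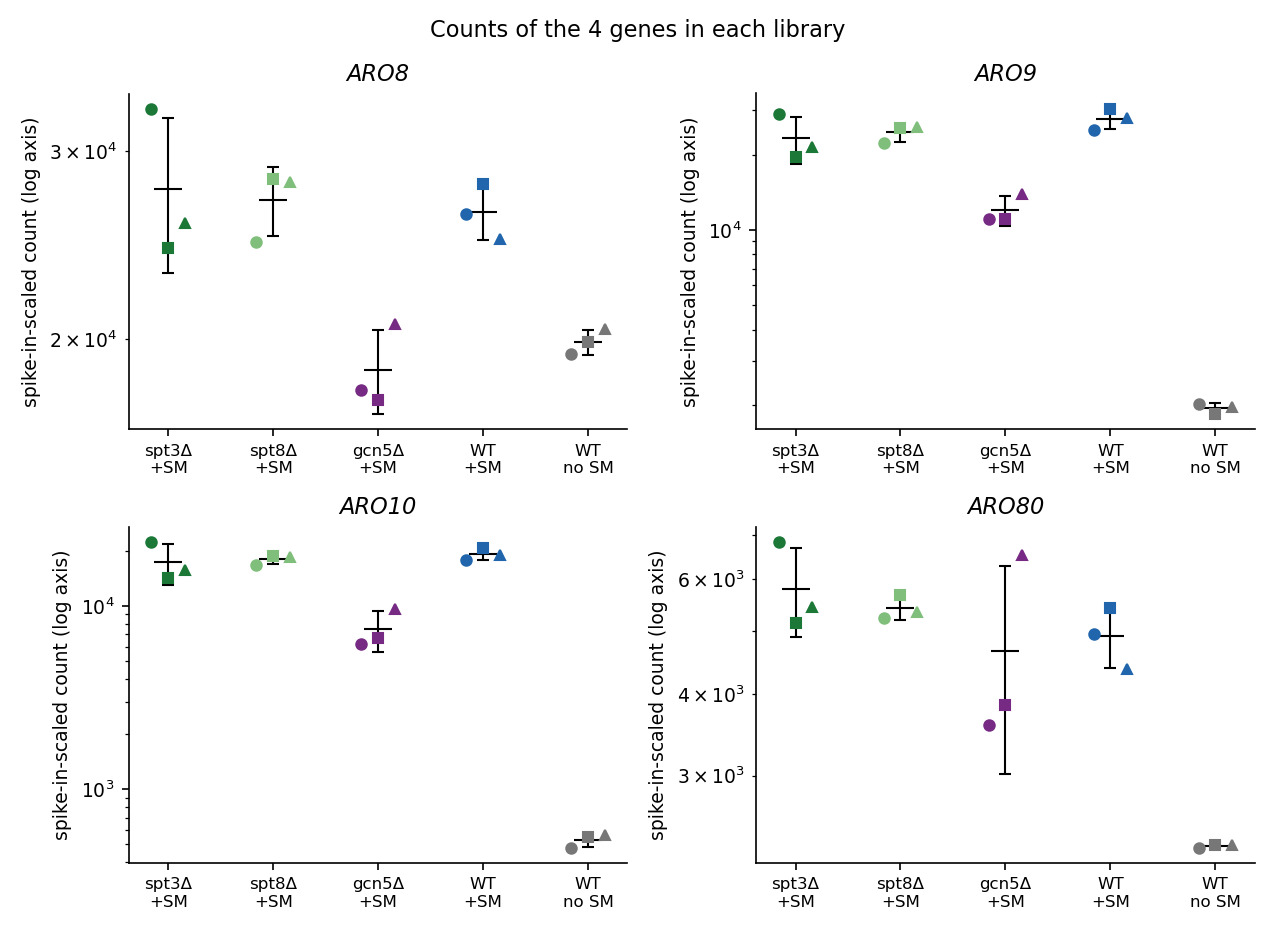
Spike-in-scaled counts of ARO8, ARO9, ARO10 and ARO80 on log axes, with 1 point a library and the mean ± SD (n = 3) as black bars. ARO10 and ARO9 form 3 levels, with spt3Δ, spt8Δ and WT with SM together, gcn5Δ below them and WT without SM far below. At this scaling gcn5Δ ARO8 lies at the level of WT without SM.

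In gcn5Δ cells the 3 enzyme genes were lower than in WT with SM, and the activator gene was not called. The WT libraries with SM took part in the choice of the genes and the gcn5Δ libraries did not. ARO8 had 17936, 17548 and 20653 scaled counts in gcn5Δ, against 26191, 27948 and 24847 in WT with SM. It was lower, by a log2 fold change of -0.49 ± 0.16 (edgeR quasi-likelihood, Benjamini-Hochberg adjusted p = 0.0118), with no overlap between the groups, as for 41.1% of all genes. ARO9 had 11037, 11093 and 13897 scaled counts in gcn5Δ, against 25132, 30360 and 28087 in WT with SM. Its log2 fold change was -1.21 ± 0.17 (edgeR adjusted p = 5.22e-07), which left 43.1% of the WT level.

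ARO10, the decarboxylase gene, had 6164, 6682 and 9665 scaled counts in gcn5Δ, against 17863, 20595 and 19022 in WT with SM. Its log2 fold change was -1.35 ± 0.19 (edgeR adjusted p = 3.73e-07), which left 39.2% of the WT level and ranked 6300 of 6564 from the highest. ARO80 had 3582, 3844 and 6525 scaled counts in gcn5Δ, against 4939, 5420 and 4365 in WT with SM. Its groups overlapped, and the log2 fold change of -0.08 ± 0.19 did not pass (edgeR adjusted p = 0.775; 95% interval -0.45 to 0.30). So 3 of the 4 genes were called lower, where 30.4% of all genes were called lower and 40.9% in either direction, and the median of all genes was -0.19.

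With TMM scaling, under which 33.4% of all genes were called lower, the same 3 genes were called lower, at -0.28 for ARO8, -1.01 for ARO9 and -1.17 for ARO10, and ARO80 was at 0.09 (edgeR adjusted p = 0.228). The ARO8 call is the least firm: its adjusted p was 0.0517 when gcn5Δ and WT with SM were fitted alone and 0.0557 without WT with SM library 2. The ARO80 value rests on gcn5Δ library 3, the library with the high ratio of yeast to spike-in counts. Without it, and with spike-in scaling, the log2 fold changes against WT were -0.57 for ARO8, -1.33 for ARO9 and -1.58 for ARO10. ARO80 was then called lower at -0.40 (edgeR adjusted p = 0.018). Across the fits that left out 1 library, 2122 to 3932 genes were called in either direction, against 2685 in the full fit. In TMM-scaled cpm, ARO80 had 120.4 and 127.7 in gcn5Δ libraries 1 and 2, against 125.0, 125.3 and 123.5 in WT with SM.

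Set beside WT without SM, gcn5Δ cells with SM still had much ARO9 and ARO10 mRNA. Their log2 difference from WT without SM was 2.63 ± 0.18 for ARO9 and 3.82 ± 0.21 for ARO10, and 0.99 ± 0.19 for ARO80. ARO8 stood at -0.09 ± 0.16, with overlapping libraries. With TMM, ARO8 was lower in gcn5Δ than in WT without SM, at -0.37 ± 0.07, and the libraries did not overlap. These values share the WT libraries without SM with the values on which the genes were chosen and are given as a description.

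In spt3Δ and spt8Δ cells none of the 4 genes passed the test with spike-in scaling, and with TMM scaling ARO9 and ARO10 were modestly lower. ARO8 had 32865, 24359 and 25670 scaled counts in spt3Δ and 24668, 28228 and 28061 in spt8Δ, against 26191, 27948 and 24847 in WT with SM. ARO9 had 28949, 19568 and 21402 in spt3Δ and 22253, 25513 and 25888 in spt8Δ, against 25132, 30360 and 28087 in WT with SM. ARO10 had 22217, 14109 and 15698 in spt3Δ and 16802, 18727 and 18392 in spt8Δ, against 17863, 20595 and 19022 in WT with SM. ARO80 had 6834, 5137 and 5430 in spt3Δ and 5238, 5673 and 5336 in spt8Δ, against 4939, 5420 and 4365 in WT with SM. In these scaled counts both deletion groups overlapped WT with SM for all 4 genes. There spt3Δ library 1, with its high ratio of yeast to spike-in counts, was the highest of its group each time. In TMM-scaled cpm, all 4 genes stood apart from WT with SM in spt3Δ, and ARO8, ARO9 and ARO10 did in spt8Δ. The share of all genes without overlap is not given for these comparisons, so it cannot be read as particular to these genes. ARO8 stood apart at log2 fold changes of only -0.04 in spt3Δ and -0.09 in spt8Δ, which did not pass (edgeR adjusted p = 0.674 and 0.33, TMM).

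In spt3Δ against WT with SM, the log2 fold changes were 0.07 for ARO8, -0.26 for ARO9, -0.14 for ARO10 and 0.24 for ARO80, with edgeR adjusted p from 0.243 to 0.764. In spt8Δ against WT with SM, they were 0.04, -0.18, -0.09 and 0.14 in the same order of genes, with edgeR adjusted p from 0.517 to 0.914. None of the 4 passed in either strain, where 35.7% of all genes were called in spt3Δ and 12.1% in spt8Δ. The 95% intervals for ARO10 reached from -0.51 to 0.22 in spt3Δ and from -0.45 to 0.27 in spt8Δ, so a fall of that size in either strain is within the error.

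The median of all genes was 0.11 in spt3Δ and 0.13 in spt8Δ, and the inducible genes changed their call with the scaling. With TMM, ARO9 was called lower in spt3Δ at -0.37 (edgeR adjusted p = 0.000661) and in spt8Δ at -0.31 (0.00523), which left 77.2% and 80.7% of the WT level. ARO10 was called lower with TMM in spt3Δ at -0.26 (edgeR adjusted p = 0.00484) and in spt8Δ at -0.22 (0.0235), which left 83.3% and 85.9%. On that scale 31.4% of all genes were called lower in spt3Δ and 21.1% in spt8Δ. The WT libraries with SM, which took part in the choice of the genes through the rise of ARO10, are the comparator of these small differences. The TMM call of ARO10 in spt8Δ was lost without WT with SM library 3 (adjusted p = 0.101), without spt8Δ library 1 (0.0559) and without spt8Δ library 2 (0.0712), in fits added after the data were seen. Without spt3Δ library 1, ARO9 was called lower with the spike-ins too, at -0.44 (edgeR adjusted p = 0.0347). Across the spike-in fits that left out 1 library, 1735 to 2294 genes were called in spt3Δ in either direction, against 2345 in the full fit.

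**Figure D3:**
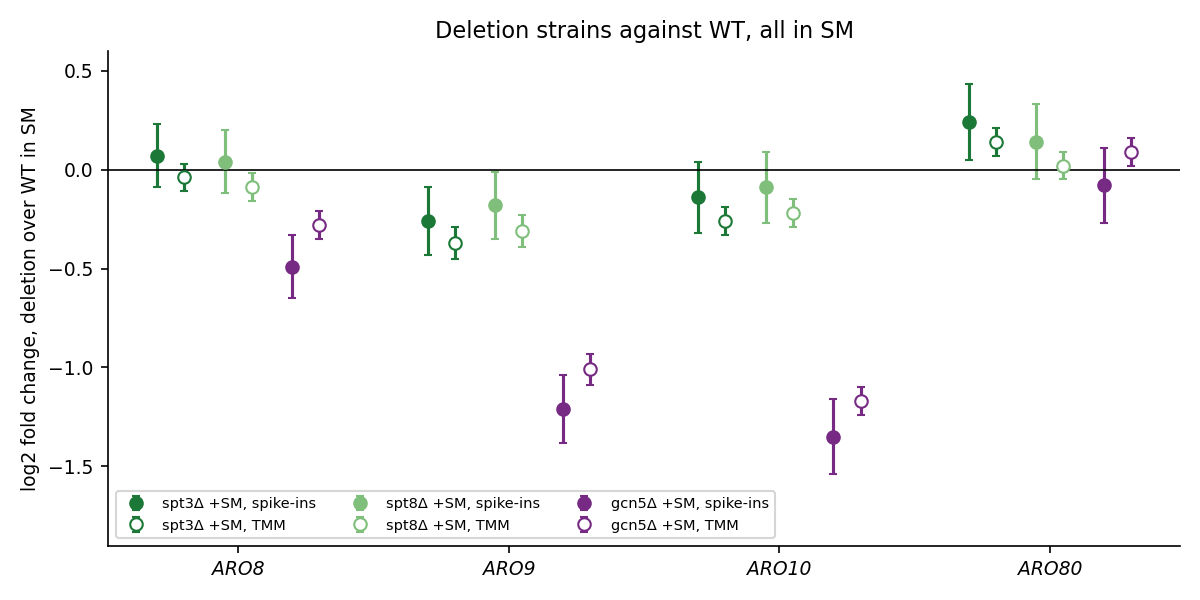
Log2 fold change ± SE of ARO8, ARO9, ARO10 and ARO80 in spt3Δ, spt8Δ and gcn5Δ over WT, all with SM, with spike-in scaling (filled) and TMM scaling (open). The gcn5Δ values of ARO9 and ARO10 lie between -1.35 and -1.01, and those of spt3Δ and spt8Δ for these genes between -0.37 and -0.09.

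The deletion strains were also set against each other, in libraries outside the WT contrast on which ARO10 was picked, although earlier results of all libraries were known when the set was chosen. The decarboxylase and inducible aminotransferase genes were higher in spt3Δ and in spt8Δ than in gcn5Δ. For ARO10 the log2 fold change was 1.21 ± 0.19 in spt3Δ over gcn5Δ (edgeR adjusted p = 2.08e-06) and 1.26 ± 0.19 in spt8Δ over gcn5Δ (1.27e-06). For ARO9 it was 0.96 ± 0.17 in spt3Δ over gcn5Δ (edgeR adjusted p = 2.05e-05) and 1.03 ± 0.17 in spt8Δ over gcn5Δ (7.87e-06). For ARO8 it was 0.56 in spt3Δ over gcn5Δ (edgeR adjusted p = 0.00378) and 0.53 in spt8Δ over gcn5Δ (0.00672). All libraries of the higher group lay above those of gcn5Δ for these 3 genes. Of all genes, 38.3% did not overlap between spt3Δ and gcn5Δ, and 43.7% between spt8Δ and gcn5Δ.

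ARO80 did not pass in spt3Δ over gcn5Δ, at 0.32 (edgeR adjusted p = 0.168), nor in spt8Δ over gcn5Δ, at 0.22 (0.36). Without gcn5Δ library 3 it was called higher in both, at 0.64 (edgeR adjusted p = 0.000134) and 0.54 (0.00115). So 3 of the 4 genes were called higher than in gcn5Δ in each comparison, where 37.3% of all genes were called higher in spt3Δ and 37.1% in spt8Δ, with medians of all genes of 0.31 and 0.30. Without gcn5Δ library 3, 4799 genes were called in either direction in spt3Δ over gcn5Δ and 4688 in spt8Δ over gcn5Δ, against 3087 and 2944 with it. With TMM, 33.6% and 31.1% of all genes were called higher. On that scale ARO10 was higher by 0.90 in spt3Δ and 0.95 in spt8Δ, ARO9 by 0.64 and 0.70 and ARO8 by 0.24 and 0.19, all called, and ARO80 stood at 0.05 and -0.07. The spt8Δ and gcn5Δ libraries belong to 1 set of library names, so that this comparison lies within a set. The ARO8 call in spt3Δ over gcn5Δ was lost when these groups were fitted alone (adjusted p = 0.106).

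Between spt3Δ and spt8Δ none of the 4 genes passed with either scaling. The log2 fold changes, spt3Δ over spt8Δ, were 0.03 for ARO8, -0.08 for ARO9, -0.05 for ARO10 and 0.10 for ARO80, with edgeR adjusted p from 0.903 to 0.965. The 95% interval for ARO10 was -0.41 to 0.31. Of all genes 3.49% were called in that comparison, and 31.1% with TMM.

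ARO9 and ARO10 were also placed among the 311 genes (4.74% of those tested) that were called higher and rose by a log2 of 3 or more with SM in WT. That rule uses the contrast on which the set was selected through ARO10, so belonging to the 311 is no result. In spt8Δ over gcn5Δ the median of these genes was 0.52, with quartiles of 0.00 and 1.15. ARO10 ranked 64 of the 311 and ARO9 ranked 92. In spt3Δ over gcn5Δ the median of the 311 was 0.21, with quartiles of -0.35 and 0.81, and ARO10 was at rank 30 and ARO9 at rank 56. Both genes were thus in the upper part of the strongly SM-induced genes by their difference from gcn5Δ. ARO10 lay above the upper quartile in both comparisons, and ARO9 only in spt3Δ over gcn5Δ.

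Ratios between 2 genes of the same library do not depend on any scaling. ARO9 made up 37.5%, 38.1% and 39.6% of the summed ARO8 and ARO9 counts per length in gcn5Δ. Its share was 46.2%, 43.9% and 44.8% in spt3Δ and 46.8%, 46.8% and 47.3% in spt8Δ, against 48.3%, 51.4% and 52.4% in WT with SM. In WT without SM it was 9.2%, 8.3% and 8.5%. Each deletion group lay wholly below WT with SM, gcn5Δ the furthest.

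As a log2 ratio, ARO9 to ARO8 differed from WT with SM by -0.72 ± 0.08 in gcn5Δ, -0.33 ± 0.08 in spt3Δ and -0.22 ± 0.07 in spt8Δ. The ratio of ARO10 to its activator ARO80 differed from WT with SM by -1.25 ± 0.11 in gcn5Δ, -0.40 ± 0.11 in spt3Δ and -0.24 ± 0.09 in spt8Δ. In all of these the libraries did not overlap, and the exact two-sided permutation p was 0.1, the smallest that 3 against 3 libraries can give (0.129 after adjustment over the 18 ratio comparisons). The ratio of ARO10 to ARO9 differed from WT with SM by -0.16 ± 0.10 in gcn5Δ (exact permutation p = 0.3), with 1 gcn5Δ library inside the range of WT with SM and values of -0.25 to -0.09 when each library was left out. The same ratio was higher by 0.26 ± 0.10 in spt3Δ than in gcn5Δ, by 0.25 ± 0.10 in spt8Δ than in gcn5Δ and by 0.10 ± 0.04 in spt3Δ than in WT with SM, each without overlap (exact permutation p = 0.1 each). Between the deletion strains, ARO10 to ARO80 was higher by 1.01 ± 0.08 in spt8Δ than in gcn5Δ and by 0.85 ± 0.10 in spt3Δ than in gcn5Δ (exact permutation p = 0.1 each).

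**Figure D4:**
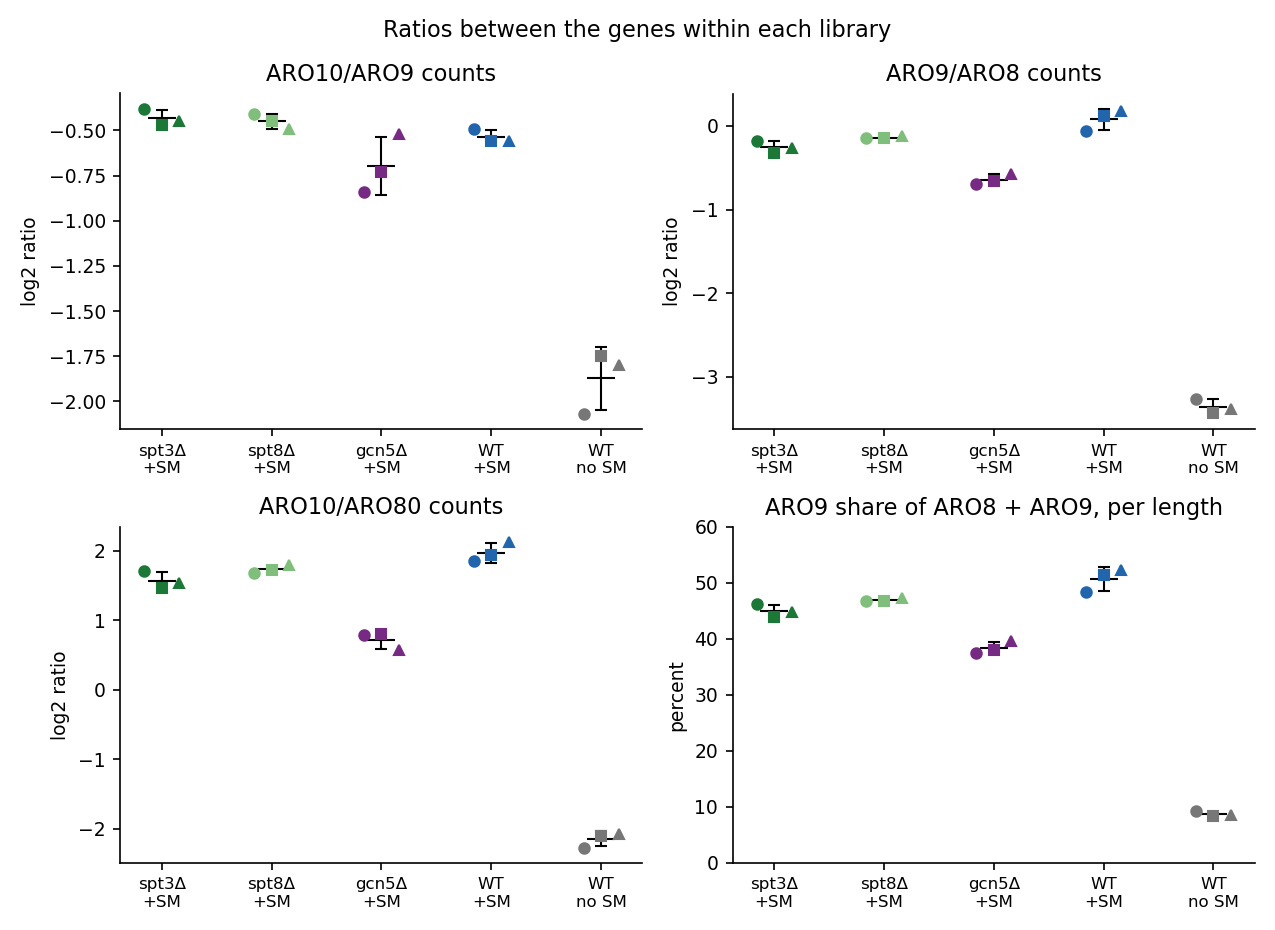
Log2 ratios of ARO10 to ARO9, ARO9 to ARO8 and ARO10 to ARO80 counts, and the percent of the summed ARO8 and ARO9 counts per length that is ARO9, with 1 point a library and the mean ± SD (n = 3) as black bars. The gcn5Δ libraries lie below those of spt3Δ, spt8Δ and WT with SM in ARO9/ARO8 (mean -0.64) and ARO10/ARO80 (mean 0.72).

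The other genes around the pathway were taken from lists of 56 genes in 8 groups, all of them tested. In gcn5Δ against WT with SM, 1 of the 56 was called higher and 19 lower, where 10.5% and 30.4% of all genes were. The median of the 56 was -0.31 (all genes -0.19). With TMM 22 were lower, where 33.4% of all genes were, and 11 higher, for which no share of all genes is given. Dehydrogenases that handle the aldehyde went both ways, with 1 of 13 higher and 6 lower. The mitochondrial aldehyde dehydrogenase gene ALD4 was lower, at -1.31 (edgeR adjusted p = 3.72e-07), the stress-induced ALD3 at -1.29 (2.66e-06), and the cytosolic ALD6 was higher by 0.75 (0.000485). Among the decarboxylases related to Aro10, the minor pyruvate decarboxylase gene PDC6 was lower, at -1.15 (edgeR adjusted p = 1.82e-05), and PDC1, PDC5 and THI3 did not pass. BAT2, the cytosolic branched-chain aminotransferase, was lower, at -1.08 (edgeR adjusted p = 7.11e-06).

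With spike-in scaling each remaining group also had members called lower in gcn5Δ, in shares near that of all genes, and none called higher. With TMM each group had genes called higher too, a direction for which no share of all genes is given. On that scale 1 was higher and 3 lower for esters and export, and 2 higher and 2 lower for permeases. The kynurenine branch had 1 higher and 3 lower, aromatic synthesis 2 higher and 4 lower, and GATA regulators 2 higher and 1 lower. Of 8 genes for fusel esters and acid export 3 were lower, among them EHT1, an ethyl ester synthase gene, at -1.08 and ATF1, an alcohol acetyltransferase gene, at -0.73 (edgeR adjusted p = 2.51e-06 and 0.00277). Of 6 permease genes 2 were lower, GAP1, the general amino acid permease, at -1.08 and TAT2, the tryptophan permease, at -0.44 (edgeR adjusted p = 9.5e-06 and 0.038). Of 6 genes of the kynurenine branch, which turns tryptophan into NAD, 2 were lower, BNA6 at -1.54 and BNA1 at -0.91 (edgeR adjusted p = 7.32e-09 and 6.38e-05). Of 12 genes for synthesis of aromatic amino acids 3 were lower, TRP1 at -0.66, ARO1 at -0.46 and TRP5 at -0.46 (edgeR adjusted p = 0.00203, 0.0226 and 0.0232). Of 5 GATA regulator genes, DAL80, a repressor with low counts, was lower at -1.16 (edgeR adjusted p = 0.000224). GCN4 itself stood at 0.36 (edgeR adjusted p = 0.0701) and was called higher with TMM at 0.57.

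In spt3Δ against WT with SM, 6 of the 56 were called higher and 11 lower, where 21.7% and 14.0% of all genes were. In spt8Δ against WT with SM 1 was higher and 8 lower, where 6.57% and 5.58% of all genes were. The medians of the 56 were -0.01 in spt3Δ and 0.01 in spt8Δ. With TMM 27 were lower in spt3Δ and 23 in spt8Δ, where 31.4% and 21.1% of all genes were. On that scale 12 were higher in spt3Δ and 7 in spt8Δ, for which no share of all genes is given. ALD4 had the widest difference of the listed genes named in both, at -2.16 in spt3Δ (edgeR adjusted p = 8.17e-12) and -1.66 in spt8Δ (1.11e-08). EEB1, an ethyl ester synthase gene, was lower, at -1.33 in spt3Δ and -1.13 in spt8Δ (edgeR adjusted p = 2.61e-07 and 1.8e-05). GAT1, a GATA activator gene, was lower, at -0.82 in spt3Δ and -0.85 in spt8Δ (edgeR adjusted p = 0.000442 and 0.00106), and AGP1, a broad amino acid permease gene, at -0.75 and -0.95 (0.00172 and 0.000438). BNA5 of the kynurenine branch was lower, at -0.96 in spt3Δ and -0.71 in spt8Δ (edgeR adjusted p = 3.42e-05 and 0.00475). Higher genes in spt3Δ included TAT1, a tyrosine and tryptophan permease gene, at 0.62 and ARO1 at 0.49 (edgeR adjusted p = 0.00647 and 0.0164).

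**Figure D5:**
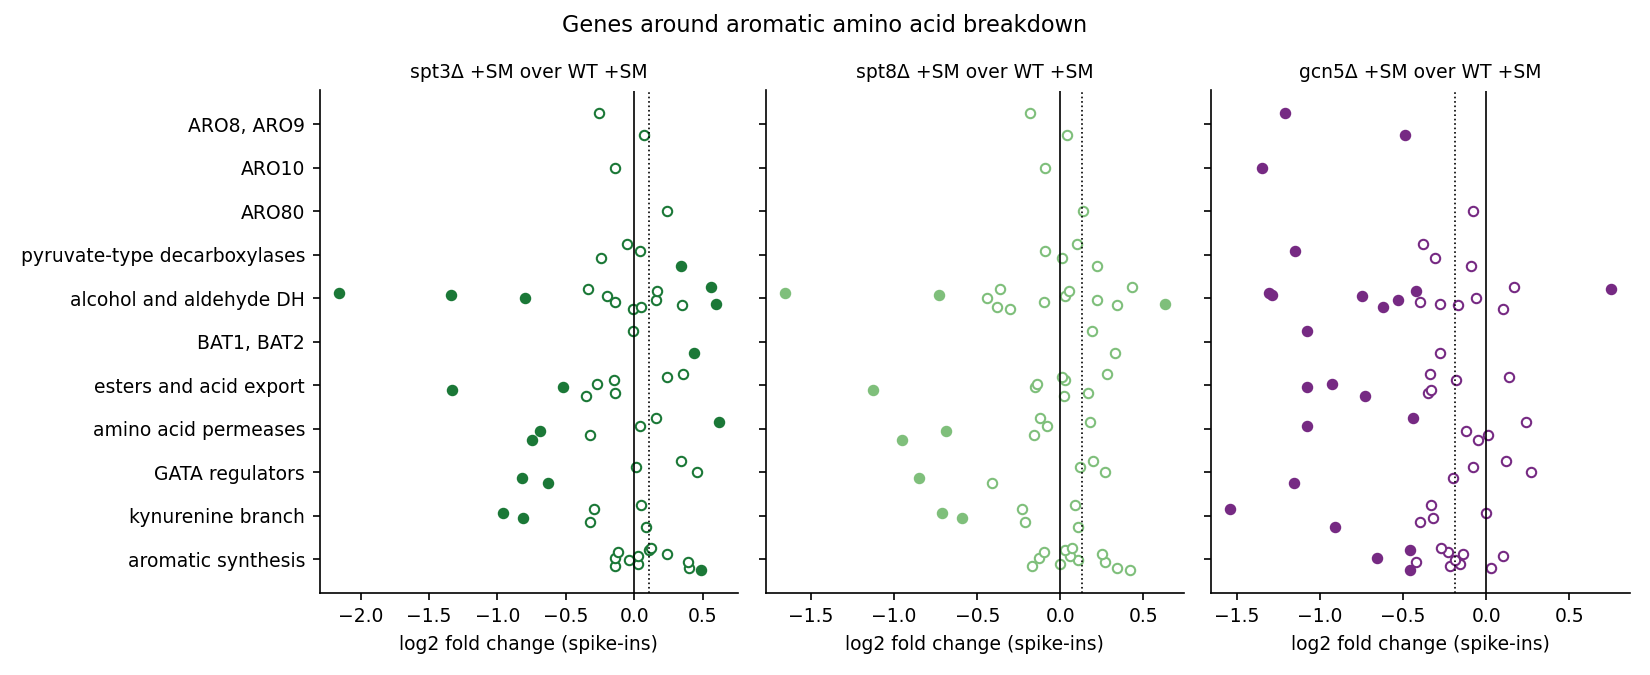
Log2 fold change (spike-in scaling) of the 4 genes and of 56 further pathway genes in spt3Δ, spt8Δ and gcn5Δ over WT, all with SM, with 1 point a gene, filled where called by edgeR, and the dotted line at the median of all genes. ARO9 and ARO10 are filled only in the gcn5Δ panel at this scaling, while ALD4 lies at -2.16, -1.66 and -1.31 in the 3 panels.

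Against gcn5Δ, 21 of the 56 genes were called higher in spt3Δ and 9 lower, and 23 were higher in spt8Δ and 7 lower; of all genes, 37.3% were higher and 9.72% lower in spt3Δ, and 37.1% higher and 7.75% lower in spt8Δ. The count of higher genes was thus near the share of all genes. With TMM 20 were higher in spt3Δ and 21 in spt8Δ, where 33.6% and 31.1% of all genes were. On that scale 21 were lower in spt3Δ and 19 in spt8Δ. The share of all genes called lower with TMM is not given, so those counts cannot be set against it. BAT2 was higher by 1.07 in spt3Δ and 1.27 in spt8Δ (edgeR adjusted p = 7.16e-06 and 4.9e-07), and BNA6 by 1.24 and 1.31 (3.32e-07 and 1.72e-07). ALD6 was lower than in gcn5Δ, at -1.09 in spt3Δ and -1.11 in spt8Δ (edgeR adjusted p = 2.54e-06 and 2.35e-06). Between spt3Δ and spt8Δ, edgeR with spike-in scaling called 0 of the 56, where 3.49% of all genes were called. With TMM 6 were higher and 10 lower, where 31.1% of all genes were called in either direction.

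For SM in WT, 36 of the 56 genes were called higher and 5 lower, where 55.7% of all genes were called higher and 7.57% lower. With TMM it was 29 higher and 18 lower. The median of all genes was 0.54 with the spike-ins and 0.04 with TMM. No share of all genes called with TMM is given, so the TMM counts of this paragraph cannot be set against it. ADH5, a minor alcohol dehydrogenase gene, rose by 3.83 (edgeR adjusted p = 1.92e-19) and ALD5 by 2.38 (7.2e-15). PDC6 rose by 2.44 (edgeR adjusted p = 1.06e-12), while the main fermentative genes PDC1 and ADH1 fell by 0.92 and 1.31 on the log2 scale (4.1e-07 and 3.5e-09). All 5 GATA regulator genes were called higher, among them GLN3, a GATA activator gene, by 1.73 (edgeR adjusted p = 1.38e-09). With TMM 4 of the 5 were called higher, and GAT1 did not pass at 0.21 (edgeR adjusted p = 0.0964). Of the 12 aromatic synthesis genes 11 were called higher, TRP3 by 2.00 and ARO3 by 1.77 (edgeR adjusted p = 2.38e-12 and 3.83e-11). With TMM 9 of the 12 were called higher and 1 lower.

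Across the 15 libraries the genes were ranked by how alike their levels ran, as Pearson's r of log2(TMM-scaled cpm + 1) over 4947 genes. This is a description, since the libraries share groups and the step from WT without SM to SM dominates. ARO9 and ARO10 had r = 0.996 with each other. Nearest to ARO10 were HOM3, for aspartate kinase, at 0.997, DIA1 at 0.996, TMT1, for a methyltransferase, at 0.995 and ARG4, for argininosuccinate lyase, at 0.994. Nearest to ARO9 were PRM5, TMT1 and DIA1 at 0.992 each and LDS2 at 0.990. ARO80 had r = 0.908 with ARO10, and its nearest genes were SKA1, MLH2, DCC1 and CNN1 at 0.984 to 0.976. ARO8 had r = -0.476 with ARO10, and its nearest genes were CHS2, RPP2A, NHP6A and AVT1 at 0.957 to 0.946. HOM3, the gene nearest to ARO10, averaged 946 cpm in gcn5Δ and 1191 cpm in WT with SM, and ARO10 averaged 215 cpm in gcn5Δ and 489 cpm in WT with SM.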

How the data were processed

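RNA from 15 yeast libraries was sequenced. The deposited table holds raw fragment counts per gene with gene lengths and ERCC spike-in counts; the authors aligned to sacCer3 with STAR and used SAMtools and DESeq2, per the submitters' processing notes, without versions. The counting tool, its strand setting and its use of shared reads are not stated in the labels or notes. A stranded kit with rRNA depletion and paired-end sequencing was used, with 2.4 µl of a 1:100 dilution of ERCC mix in 1.2 µg of RNA, per the labels. ARO8 and ARO9 share no identical run above 16 bases, and the antisense feature YHR137C-A, which overlaps 651 bases of ARO9, had at most 38 counts.

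From the counts, size factors were computed as medians of ratios over the 74 spike-ins seen in every library. edgeR 4.0.16 (R 4.3.3, limma 3.58.1) quasi-likelihood was fitted to all 5 groups after filterByExpr, with Benjamini-Hochberg adjustment over 6564 genes and calls at 0.05; the script was tested on simulated data. Ranges given as 95% intervals are 1.96 SE on either side. ARO10 had 576 or more counts in every library. The common coefficient of variation between replicates, over all yeast genes before the filter and with spike-in scaling, was 16.1%. For ARO10 scaled counts it ran from 5.72% in spt8Δ to 25.2% in gcn5Δ. Within-library ratios were tested with exact permutation. Tables were made in Python 3.11.15 (numpy 2.4.6, pandas 2.3.3), permutations with scipy 1.17.1, figures with matplotlib 3.10.9. Of yeast identifiers 6008 matched the RefSeq R64 annotation, 6000 at the same coordinates.

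The members and lists were chosen with earlier results of these data known. Named from each list were, per comparison, up to 3 called genes with the largest absolute change or, failing that, the most abundant gene; GCN4 and the deleted genes; and per member the 4 genes with the highest r among genes with a mean of 10 cpm or more. The text prints part of those. PDC5 was named beyond the rule to complete its list. Alternatives were TMM, total spike-in counts, DESeq2 1.42.0 with spike-in or its own size factors, no low-count filter, fits of 2 groups, a replicate block and leaving out each library. Same-numbered libraries did not deviate together in every pair, so numbers were not taken as pairing.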

Additional observations from a re-analysis of the deposited data

How the results depend on the processing

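The calls of ARO9 and ARO10 lower in gcn5Δ than in WT with SM, and higher in spt3Δ and spt8Δ than in gcn5Δ, held under every alternative run; the cause of the changes below was not tested. With TMM and with DESeq2's own size factors, ARO8 reversed in spt3Δ (-0.04 and -0.07) and spt8Δ (-0.09 and -0.09) against WT with SM, and against WT without SM in spt3Δ (-0.13 and -0.25), spt8Δ (-0.18 and -0.26) and WT with SM (-0.09 and -0.18; 0.27 with total spike-ins). ARO80 reversed in gcn5Δ against WT with SM (0.09 and 0.09) and in spt8Δ over gcn5Δ (-0.07 and -0.06). ARO9 and ARO10 became called in spt3Δ (TMM -0.37 and -0.26; DESeq2 -0.41 and -0.30) and spt8Δ (TMM -0.31 and -0.22; DESeq2 -0.31 and -0.22). For SM in WT, TMM and DESeq2's own factors gave 3.35 and 3.26 for ARO9, 4.69 and 4.60 for ARO10 and 0.57 and 0.48 for ARO80, and total spike-ins 3.71 for ARO9 and 5.04 for ARO10. With 2 groups fitted alone, ARO8 was no longer called in gcn5Δ (-0.49) or in spt3Δ over gcn5Δ (0.56).

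Against WT with SM, genes called numbered 4284 (TMM) and 4369 (DESeq2, own factors) in spt3Δ, against 2345 in the fit reported; 2952, 3103 and, fitted alone, 2273 in spt8Δ, against 797; and 4430 and 4517 in gcn5Δ, against 2685. For spt3Δ over spt8Δ they numbered 2043, 2252 and, fitted alone, 591, against 229, and for spt3Δ over gcn5Δ, fitted alone, 1811, against 3087.

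Leaving out each library gave -0.57 to -0.45 (ARO8, gcn5Δ against WT with SM), -0.40 to 0.08 (ARO80, gcn5Δ), -0.07 to 0.15 (ARO8, spt3Δ), -0.44 to -0.15 (ARO9, spt3Δ), -0.36 to -0.02 (ARO10, spt3Δ), 0.06 to 0.22 (ARO80, spt8Δ) and -0.0045 to 0.10 (ARO8, spt8Δ). For spt3Δ over spt8Δ it gave -0.11 to 0.12 (ARO8), -0.26 to 0.04 (ARO9), -0.27 to 0.08 (ARO10) and -0.04 to 0.18 (ARO80), and for ARO80 over gcn5Δ 0.16 to 0.64 in spt3Δ and 0.06 to 0.54 in spt8Δ. Genes called ran from 51 to 184 (spt3Δ over spt8Δ), 390 to 551 (spt8Δ against WT), 2295 to 4799 (spt3Δ over gcn5Δ) and 2199 to 4688 (spt8Δ over gcn5Δ), the highest of the last 2 without gcn5Δ library 3.

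With the replicate number as a block (replicate block) no call of the 4 genes changed (against WT with SM in gcn5Δ, ARO8 at -0.49, adjusted p = 0.0292, and ARO10 at -1.36, adjusted p = 3.37e-07, from edgeR). Same-numbered libraries correlated from -0.602 to 0.516, so the numbers were not taken as pairing.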
